A study of Mus musculus with 15 samples.

Results

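The genes described here are 10 genes of cholesterol efflux and of the response to liver X receptors (LXR), followed across macrophages sorted from mouse gliomas. They were chosen by symbol from the deposited table of 55486 genes. Among them are the efflux transporters Abca1 and Abcg1 and the lipoprotein genes Apoe, Apoc1, Apoc2 and Pltp. The others are the further LXR targets Mylip, Lpcat3 and Srebf1, and Smpdl3a, an LXR target in human macrophages. All 10 were found in the table, and 9 passed the filter on low counts that 14843 genes passed. The exception was Apoc2, an apolipoprotein that activates lipoprotein lipase, with 4 counts over all 15 libraries.

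LXR are nuclear receptors that sense oxidized cholesterol and bind DNA as partners of the retinoid X receptors (RXR). In macrophages that have taken up cholesterol-rich material such as myelin, they switch on transporters and apolipoproteins that export the sterol, and genes that limit further uptake and remodel membrane lipids. Macrophages of the brain depend on this route, because the tissue is rich in myelin and its cholesterol is carried on particles built around apolipoprotein E.

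The cells came from primary brain tumours of mice with the genotype Ink4a/ArfKO, PDGFB, a model named PDG-Ink4a in which the growth factor PDGFB is expressed in Nestin-positive progenitor cells of animals lacking the Ink4a/Arf tumour suppressor locus. All 4 groups share this genotype, and no tumour-free brain was analysed here. There were 3 libraries of lipid-laden monocyte-derived macrophages (MDM, cells that enter the brain from the blood), 4 of non-lipid-laden MDM, 4 of lipid-laden microglia (macrophages resident in the brain) and 4 of non-lipid-laden microglia, all purified by flow cytometry. The sources used here give neither the stain that defined lipid load nor the age of the mice. Library titles carry the numbers 224, 221, 431 and 718, each after the letters mn, which the labels do not explain. Values per library are given below in that order, without 431 for lipid-laden MDM. Nothing states whether libraries of 1 group came from separate animals, so p-values measure the spread between these libraries. Total counts were 9306839 to 10699235 in lipid-laden MDM, 7798952 to 11419338 in non-lipid-laden MDM, 8962885 to 9797627 in lipid-laden microglia and 7842531 to 9658143 in non-lipid-laden microglia. Levels are CPM, counts relative to library sizes scaled by TMM, and means are given ± SD. Both lipid-laden libraries of number 221 stood apart on the second principal component of log2 CPM, at -119 for microglia and -67.4 for MDM, while the other 13 libraries lay between -29.2 and 61.7. Results are therefore also given without these 2 libraries where a call or value moves.

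Promoter sequence was read for the genes in the RefSeq table of assembly GRCm38.p6, which held 11 windows of 300 bases for 7 of them. They were searched on both strands for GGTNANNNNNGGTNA, a pair of half-sites in the direct repeat that LXR and RXR bind. This motif was in 236 of 32851 promoter windows (0.718%) and in 2 of the 11 windows here, that of Abca1 and 1 of the 3 windows of Srebf1. The stretches around both matches are printed on the gene's own strand to show the element itself, with the match in capitals.
Abca1, mm10 chr4:53159906-53160005, minus strand: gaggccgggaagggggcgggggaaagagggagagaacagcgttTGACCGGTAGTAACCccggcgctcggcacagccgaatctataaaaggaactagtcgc
Srebf1, mm10 chr11:60210597-60210696, minus strand: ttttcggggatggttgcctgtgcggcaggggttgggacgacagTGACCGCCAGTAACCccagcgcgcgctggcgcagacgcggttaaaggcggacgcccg
The Abca1 match lay 67 to 53 bases before the start and reads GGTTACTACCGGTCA on the opposite strand. The Srebf1 match lay 182 to 168 bases before its start and reads GGTTACTGGCGGTCA on the opposite strand. Of the 15 letters, 13 are the same in both. A match describes these letters only. Of the 2 genes with one, Abca1 was higher in lipid-laden than in non-lipid-laden MDM and Srebf1 was called in no comparison.

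The sorted groups were first set against their markers. The summed level of 8 microglia markers was 5970 to 7460 CPM in lipid-laden MDM, 2170 to 3110 CPM in non-lipid-laden MDM, 5590 to 13300 CPM in lipid-laden microglia and 9110 to 12800 CPM in non-lipid-laden microglia. The summed level of 8 MDM markers was 1260 to 1530 CPM in lipid-laden MDM, 3050 to 3670 CPM in non-lipid-laden MDM, 277 to 680 CPM in lipid-laden microglia and 248 to 388 CPM in non-lipid-laden microglia. Lipid-laden MDM thus lay above non-lipid-laden MDM in microglia markers, with 7 of 8 called higher and none lower. They lay below it in MDM markers, with 4 of 8 called lower, and above both groups of microglia. P2ry12, a purinergic receptor of microglia, was at 488 ± 48.1 CPM in lipid-laden MDM and 147 ± 24.7 CPM in non-lipid-laden MDM. Ccr2, the chemokine receptor that recruits monocytes, was at 215 ± 65.2 and 958 ± 242 CPM in the same groups, and Itga4, an integrin subunit that marks macrophages of blood origin, at 36.2 ± 16.4 and 75.5 ± 27.6 CPM. Of 8 dendritic cell markers 5 were lower in lipid-laden MDM, with sums of 158 to 195 CPM against 895 to 2350 CPM in non-lipid-laden MDM. Of 8 glioma and progenitor markers 4 were higher, with sums of 65 to 133 CPM in lipid-laden MDM against 12 to 24.5 CPM in non-lipid-laden MDM. Astrocyte markers had 2 of 8 called higher, with sums of 72.4 to 121 CPM in lipid-laden MDM against 57.8 to 94.8 CPM in non-lipid-laden MDM, and 1 marker each was called higher among 6 oligodendrocyte and 3 B cell markers tested. Neutrophil markers had 2 of 5 called higher, with sums of 151 to 572 against 99.4 to 155 CPM, and 6 genes common to macrophages had 4 higher and 1 lower, with sums of 4740 to 6240 against 3580 to 4250 CPM. In bulk libraries, a change in the share of a cell type cannot be told apart from a change of RNA per cell, and the part of these marker shifts in the results on the 10 genes was not tested. Of 7 lipid load genes 3 were higher in lipid-laden MDM, among them Plin2, which coats lipid droplets, at 1424 ± 244 CPM against 765 ± 149 CPM in non-lipid-laden MDM, and Gpnmb, a glycoprotein of lipid-associated macrophages, at 756 ± 265 against 119 ± 59.8 CPM. Hilpda, of the same list, went the other way without being called. It was at 232 ± 31.4 CPM in lipid-laden and 362 ± 49.6 CPM in non-lipid-laden MDM. Among microglia no gene of that list was called (Plin2 1178 ± 315 CPM in lipid-laden and 816 ± 237 CPM in non-lipid-laden cells, Gpnmb 662 ± 510 and 167 ± 174 CPM). With the number in the titles as a block, 4 of the 7 were called higher in lipid-laden microglia. They were Lgals3 (log2 fold change 1.44, edgeR adjusted p = 0.00533), Hilpda (1.24, 0.00645), Fabp5 (1.23, 0.0117) and Spp1 (0.93, 0.0276).

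**Figure D1:**
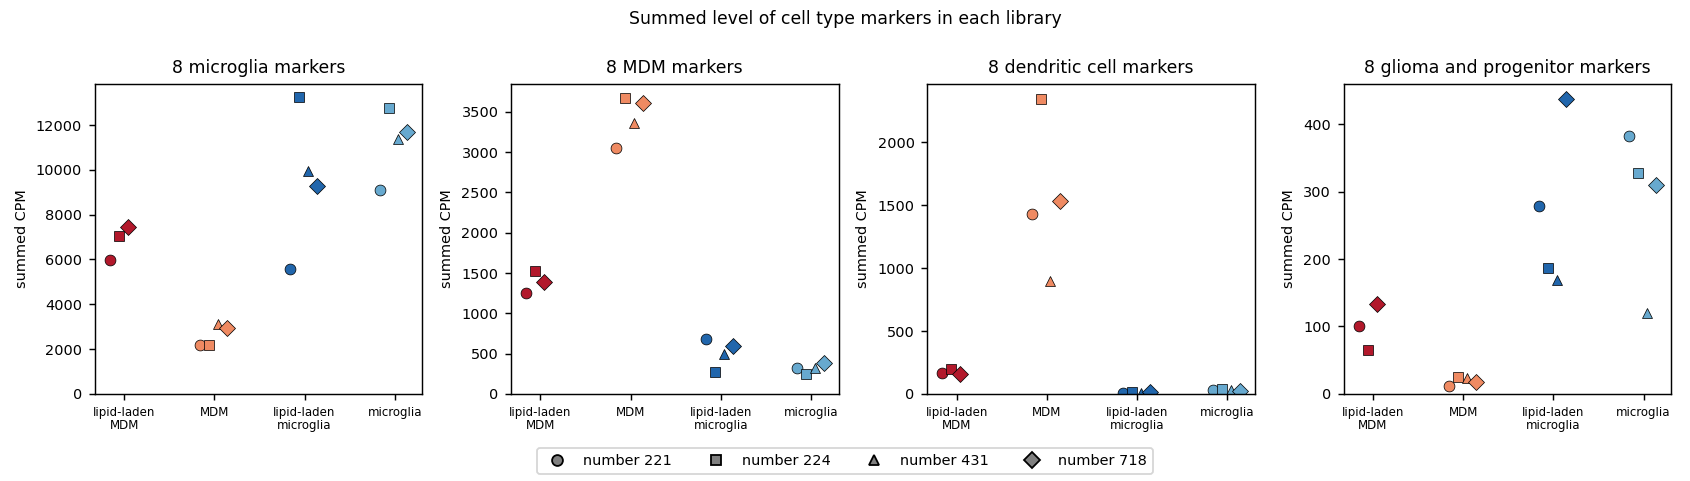
Summed CPM (vertical axes, linear) of 4 lists of 8 cell type markers in each of the 15 libraries, by group. Each point is a library and its shape is the number in the title. Lipid-laden MDM sit between non-lipid-laden MDM and microglia for the MDM and dendritic cell markers, and at 5970 to 7460 CPM for microglia markers, above non-lipid-laden MDM.

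Lipid-laden and non-lipid-laden MDM were compared to see how the export genes stood in recruited macrophages sorted for lipid. The cholesterol transporter genes Abca1 and Abcg1 and the phospholipid-remodelling gene Lpcat3 were higher in lipid-laden MDM, by 2.50, 1.95 and 1.94-fold, and the phosphodiesterase gene Smpdl3a was lower, by 1.82-fold. Of the 9 genes tested, 3 were thus higher and 1 was lower, where 5.21% and 2.96% of all 14843 genes were (8.17% in either direction, edgeR adjusted p under 0.05). The median log2 fold change of the 9 genes was 0.82, beside 0.04 over all genes tested. Every lipid-laden library lay above every non-lipid-laden library for 5 of the 9 genes (Abca1, Abcg1, Apoe, Apoc1 and Lpcat3), as it did for 11.1% of all genes, and below for Smpdl3a, as for 10.7% of all genes. The 4 calls were kept in all 22 alternatives run, among them each omission of 1 library. Without both lipid-laden libraries of number 221 the log2 fold changes were 1.54 for Abca1, 1.06 for Abcg1, 1.02 for Lpcat3 and -0.84 for Smpdl3a, and Mylip passed as well (1.01).

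Between lipid-laden and non-lipid-laden microglia none of the 9 genes was called in the same fit. Nor was any of the 14843 genes tested (0%), of which edgeR put 1367 below 0.05 before adjustment and none below 0.0717 after it. By the other tools run, limma-voom called 0 genes and DESeq2 180. The groups overlapped for all 9 genes, while 2.65% of all genes lay above and 2.81% below without overlap. The median log2 fold change of the 9 genes was 0.22, beside -0.02 over all genes. With the number in the titles as a block, 119 genes (0.802%) were called, and Mylip was the 1 of the 9 among them. Without both lipid-laden libraries of number 221 none of the 9 passed.

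The effect of origin was read from the non-lipid-laden cells, and here the genes divided. Smpdl3a and Pltp were 11.0-fold and 7.68-fold higher in MDM, while Abca1, Abcg1, Mylip and Lpcat3 were lower by 2.17, 1.93, 2.39 and 2.13-fold. So 2 of the 9 genes were higher and 4 lower, where 10.7% and 12.5% of all genes were (23.2% in either direction). All genes tested had a median log2 fold change of -0.12 in this comparison, which is small beside these values, and the 9 genes had -0.24. The groups overlapped for none of the 6 genes called, and 13.8% of all genes lay above and 14.8% below without overlap. Beside these calls, all 8 MDM markers were higher and all 8 microglia markers lower in non-lipid-laden MDM than in non-lipid-laden microglia. Markers of other cells moved as well: 8 of 8 dendritic cell markers were higher (sums of 895 to 2350 against 21.7 to 38.9 CPM), 6 of 8 T and NK cell markers were higher (29.1 to 156 against 0 to 6.66 CPM), and 8 of 8 glioma and progenitor markers were lower (12 to 24.5 against 120 to 383 CPM). Their part in the results on the 9 genes was not tested. Each of the 6 calls was kept in all 22 alternatives. Among lipid-laden cells, where 2.2% of all genes were higher in MDM and 0.579% lower (2.78% in either direction), Smpdl3a and Pltp were again higher in MDM, by 4.35-fold and 5.88-fold, and no other of the 9 genes was called. Without both libraries of number 221 their log2 fold changes were 2.26 and 2.74. Every lipid-laden MDM library lay above every lipid-laden microglial library for these genes and Apoe, as for 7.36% of all genes, and below for none of the 9, as for 5.15% of all genes. With the number as a block, under which 3.83% of all genes were called, Apoe joined the 2 genes. In lipid-laden MDM, 5 of 8 MDM markers were higher than in lipid-laden microglia (sums of 1260 to 1530 against 277 to 680 CPM). Only 1 of 8 microglia markers was lower, and the sums overlapped (5970 to 7460 against 5590 to 13300 CPM). Of the other markers, 6 of 8 for dendritic cells were higher in lipid-laden MDM (158 to 195 against 6.22 to 18.7 CPM), and 5 with the number as a block. So were 4 of 8 for T and NK cells (30.4 to 88.4 against 0 to 3.51 CPM). For glioma and progenitor cells, 2 of 8 were lower (65 to 133 against 169 to 438 CPM). The part of these markers in the results on the 9 genes was not tested. Both comparisons of origin share libraries with the comparisons of lipid load, so their values are not independent of each other.

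The lipid-laden effect was then compared between the origins, as the log2 fold change in MDM minus that in microglia. Of the 9 genes, only Abca1 (1.10, SE 0.23, edgeR adjusted p = 0.019) and Smpdl3a (-1.34, SE 0.23, edgeR adjusted p = 0.00635) differed, where 1.6% of all genes had a higher and 0.93% a lower effect in MDM (2.53% in either direction). The median difference was 0.78 over the 9 genes and 0.10 over all genes tested. The call of Abca1 was lost without lipid-laden MDM library 224 (edgeR adjusted p = 0.0677) or 718 (0.0733), and that of Smpdl3a was kept in all 21 alternatives. Without both libraries of number 221 the differences were 1.30 and -1.22, and both passed. Abcg1 (0.78, SE 0.22, edgeR adjusted p = 0.0689), Mylip (1.32, SE 0.37, 0.0717) and Lpcat3 (0.81, SE 0.29, 0.169) did not pass, and each passed on leaving out 1 library. Without non-lipid-laden microglia 431, Abcg1 reached edgeR adjusted p = 0.025. Without lipid-laden microglia 224, Mylip reached 0.0281 and Lpcat3 0.0472, and without non-lipid-laden MDM 224 Mylip reached 0.0492 (edgeR adjusted p).

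**Figure D2:**
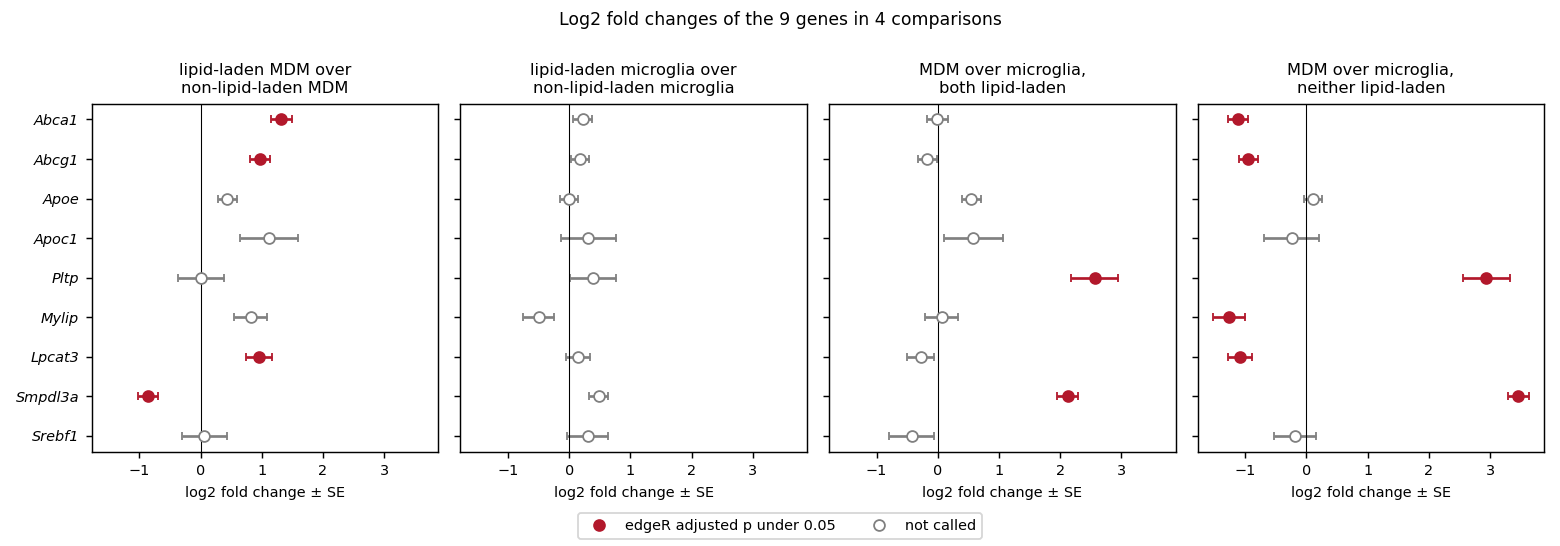
Log2 fold changes (horizontal axes) with SE bars of the 9 genes tested in 4 comparisons, filled red where edgeR's adjusted p was under 0.05. Abca1, Abcg1 and Lpcat3 lie right of 0 and Smpdl3a left of it among MDM, no gene is filled among microglia, and Pltp and Smpdl3a lie far right in both comparisons of origin.

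Abca1 encodes the transporter that loads cholesterol and phospholipid onto lipid-poor apolipoproteins (ENSMUSG00000015243, chromosome 4, 53030787 to 53159895, minus strand). It was at 769.5, 419.6 and 699 CPM in lipid-laden MDM and at 253, 240.1, 258 and 256 CPM in non-lipid-laden MDM. It was at 593, 633.5, 624 and 689 CPM in lipid-laden microglia and at 574, 571.5, 440.4 and 596 CPM in non-lipid-laden microglia. Non-lipid-laden MDM were the lowest group and varied least, while lipid-laden MDM varied most and overlapped microglia. The rise in lipid-laden MDM was 1.32 on the log2 scale (SE 0.17, edgeR adjusted p = 0.000242). Lipid-laden MDM and lipid-laden microglia averaged 629 ± 185 and 635 ± 40.0 CPM and did not differ beyond their spread (log2 fold change -0.01, SE 0.17, edgeR adjusted p = 0.989), whereas non-lipid-laden MDM lay below non-lipid-laden microglia (251.5 ± 7.91 against 545.5 ± 70.9 CPM, -1.12, SE 0.16, 0.000124). Among microglia, the lipid-laden library was the higher of all 4 pairs with the same number, by log2 ratios of 0.05 to 0.50, but the fold change of 0.22 (SE 0.16) did not pass (edgeR adjusted p = 0.749).

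Abcg1 encodes the transporter that passes cholesterol to formed high-density lipoprotein particles (ENSMUSG00000024030, chromosome 17, 31057675 to 31117988, plus strand). It was at 1299, 980.5 and 1140 CPM in lipid-laden MDM and at 662, 566, 531 and 575 CPM in non-lipid-laden MDM. It was at 1412, 1396, 1067 and 1241 CPM in lipid-laden microglia and at 1175, 1283, 827 and 1225 CPM in non-lipid-laden microglia. The order of the groups was that of Abca1, with non-lipid-laden MDM alone at the bottom and the other 3 groups overlapping. The log2 fold change was 0.97 between lipid-laden and non-lipid-laden MDM (SE 0.16, edgeR adjusted p = 0.00144) and 0.18 between lipid-laden and non-lipid-laden microglia (SE 0.15, 0.797), again with the lipid-laden library higher in 4 of 4 pairs. Between origins it was -0.17 among lipid-laden cells (SE 0.16, edgeR adjusted p = 0.719) and -0.95 among non-lipid-laden cells (SE 0.15, 0.000269). The 4 non-lipid-laden MDM libraries, with 2170 to 3110 CPM of microglia markers, were the lowest of all in both the markers and the 2 transporter genes. In the other 11 libraries these markers ran from 5588 CPM (lipid-laden microglia 221) to 13270 CPM (lipid-laden microglia 224). Abca1 ran there from 419.6 to 769.5 CPM (lipid-laden MDM 221 and 224). Abcg1 ran from 827 CPM (non-lipid-laden microglia 431) to 1412 CPM (lipid-laden microglia 224). How far the markers and the 2 genes moved together was not tested.

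The genes whose log2 CPM ran closest to Abca1 over the 15 libraries, out of 8748 genes of sufficient level, were Tpp1, Sypl and Pla2g15, with root-mean-square differences of 0.179, 0.199 and 0.22 beside an SD of 0.608 for Abca1 itself. For Abcg1 they were Tpp1, Cln8 and Lgmn (0.148, 0.148 and 0.162, beside an SD of 0.506). Tpp1 and Lgmn encode lysosomal peptidases, and Pla2g15 a lysosomal phospholipase. Tpp1 averaged 748 ± 87.8 CPM in lipid-laden MDM, 340 ± 35.9 CPM in non-lipid-laden MDM, 750 ± 56.3 CPM in lipid-laden microglia and 656 ± 113 CPM in non-lipid-laden microglia. The 15 points share the 4 groups and their libraries.

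Apoe encodes apolipoprotein E, the main lipid carrier of brain lipoproteins and an acceptor of exported cholesterol (ENSMUSG00000002985, chromosome 7, 19696109 to 19699188, minus strand). It was at 19580, 14770 and 16270 CPM in lipid-laden MDM, at 12110, 12670, 12900 and 11930 CPM in non-lipid-laden MDM, at 13210, 10960, 9269 and 12500 CPM in lipid-laden microglia and at 12270, 11060, 8488 and 14030 CPM in non-lipid-laden microglia. All 3 lipid-laden MDM libraries lay above every one of the other 12 libraries, an order that 78 of the 14843 genes (0.526%) and no other of the 9 genes shared. In those 3 libraries Apoe took 1.86, 1.44 and 1.61% of all counts. Apoe was not called among MDM (means of 16870 ± 2465 CPM in lipid-laden and 12400 ± 457 CPM in non-lipid-laden cells, a difference of 0.44 on the log2 scale with SE 0.16 and edgeR adjusted p = 0.0957). A fit of these 2 groups alone did call it (edgeR adjusted p = 0.0245). Between lipid-laden MDM and lipid-laden microglia the log2 fold change was 0.55 (SE 0.16, edgeR adjusted p = 0.0754), with MDM higher in 3 of 3 pairs, and 0.49 with the number as a block (SE 0.12, edgeR adjusted p = 0.0475). It also passed without non-lipid-laden microglia 431 (edgeR adjusted p = 0.0337), with DESeq2 (adjusted p = 0.0371) and with limma-voom (0.037). Lipid-laden and non-lipid-laden microglia had the same mean within their spread, at 11480 ± 1750 and 11460 ± 2326 CPM (log2 ratio 0.00, SE 0.15, edgeR adjusted p = 1).

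Unlike the transporters, Apoe stood higher in lipid-laden MDM than in either group of microglia, and its level in non-lipid-laden MDM was within the range of microglia. Its nearest genes in likeness were Hsd17b4, Slc35a4 and Lrrc25 (root-mean-square differences 0.167, 0.175 and 0.176, beside an SD of 0.296 for Apoe). These genes were far lower than Apoe, at means of 75.1 to 241 CPM over the groups, and none was called in any of the 4 comparisons of groups.

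Apoc1 encodes a small apolipoprotein that slows the clearance of lipoproteins, and lies 3.4 kb from Apoe (ENSMUSG00000040564, chromosome 7, 19689481 to 19692660, minus strand). It was at 54.5, 38.7 and 72.3 CPM in lipid-laden MDM and at 31.3, 21.2, 15.6 and 33.1 CPM in non-lipid-laden MDM. It was at 44.9, 45.9, 9.56 and 47.6 CPM in lipid-laden microglia and at 25.1, 34.7, 12.7 and 47.0 CPM in non-lipid-laden microglia. The MDM groups did not overlap, yet the difference of 1.12 on the log2 scale (SE 0.48) did not pass (edgeR adjusted p = 0.178), and both microglial libraries of number 431 were low. Apoc2 (ENSMUSG00000002992, chromosome 7, 19671579 to 19677941, minus strand) had 1 count in lipid-laden MDM, 0 in non-lipid-laden MDM, 3 in lipid-laden microglia and 0 in non-lipid-laden microglia, so no difference was detectable at this depth.

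Genes within 100 kb of Apoe were then looked at, a window chosen after values had been seen. Of 15 genes there, 9 were tested, 7 of them outside the 10 genes described here. Apoc4, another apolipoprotein gene of the cluster, was at 12.7 ± 4.24 CPM in lipid-laden MDM and 4.16 ± 1.69 CPM in non-lipid-laden MDM (log2 ratio 1.60, SE 0.57, edgeR adjusted p = 0.10). Tomm40, a mitochondrial import gene beside Apoe, had a log2 ratio of 0.12 (SE 0.21). The adhesion gene Nectin2 was higher in lipid-laden MDM (1.49, SE 0.34, edgeR adjusted p = 0.0135) and the NF-kappa-B subunit gene Relb was lower (-1.30, SE 0.28, 0.00964). Apoe, Apoc1 and Apoc4 therefore had positive values in lipid-laden MDM that did not pass, beside neighbours that were called in opposite directions. Such values were not limited to apolipoprotein genes, since the neighbour Clptm1 had a log2 ratio of 0.50 (SE 0.17, edgeR adjusted p = 0.0893).

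**Figure D3:**
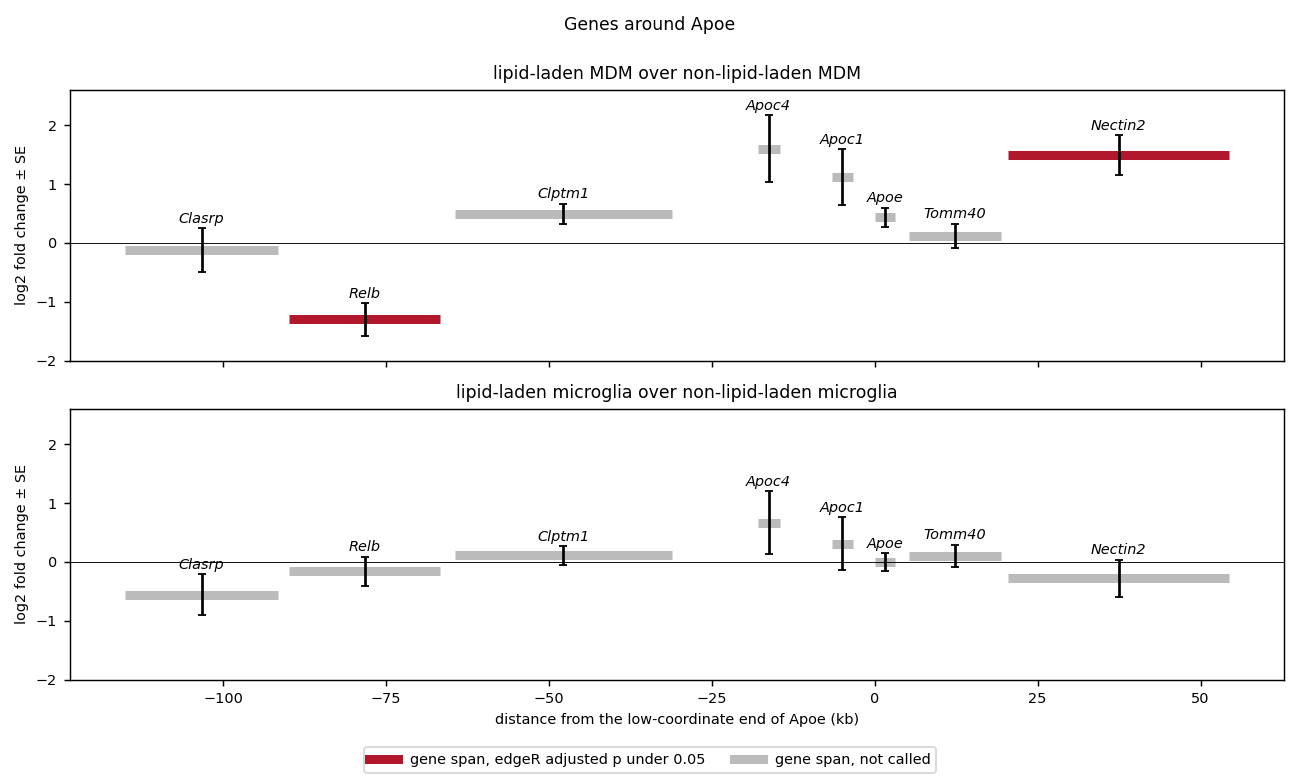
Log2 fold change with SE (vertical axis) of the tested genes within 100 kb of Apoe, drawn at their distance from Apoe in kb, for MDM above and microglia below, except Bcam, which had few counts. Apoe, Apoc1, Apoc4, Clptm1 and Tomm40 lie above 0 among MDM without being called, Nectin2 is called higher and Relb lower, and no gene is called among microglia.

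Pltp encodes the phospholipid transfer protein that remodels lipoproteins (ENSMUSG00000017754, chromosome 2, 164839518 to 164857711, minus strand). It was at 106.5, 68.5 and 121 CPM in lipid-laden MDM and at 91.5, 115, 66.7 and 119.7 CPM in non-lipid-laden MDM. It was at 14.6, 15.9, 7.51 and 28.9 CPM in lipid-laden microglia and at 15.4, 11.5, 6.77 and 17.6 CPM in non-lipid-laden microglia. Every MDM library lay above every microglial library, and the lipid-laden and non-lipid-laden groups overlapped in both origins. The log2 fold change of MDM over microglia was 2.56 among lipid-laden cells (SE 0.39, edgeR adjusted p = 0.00178) and 2.94 among non-lipid-laden cells (SE 0.38, 5.29e-05), and lipid-laden over non-lipid-laden MDM gave 0.01 (SE 0.38, 1). Pltp overlaps Ctsa, a lysosomal protease gene on the opposite strand with 383367 counts in all against 7719 for Pltp, and the strand setting of the counting is not given in the sources used here. Ctsa moved otherwise than Pltp: it was lower in non-lipid-laden MDM than in microglia (log2 fold change -0.56, edgeR adjusted p = 0.00148) and higher in lipid-laden than in non-lipid-laden MDM (0.71, 0.00142).

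Mylip encodes a ubiquitin ligase, also called IDOL, that marks lipoprotein receptors for breakdown and so limits cholesterol uptake (ENSMUSG00000038175, chromosome 13, 45389742 to 45412022, plus strand). It was at 301, 177 and 262 CPM in lipid-laden MDM and at 192, 87.2, 137 and 142 CPM in non-lipid-laden MDM. It was at 339.5, 167, 211 and 229 CPM in lipid-laden microglia and at 420.4, 269, 314 and 334 CPM in non-lipid-laden microglia. Lipid-laden libraries were the higher in 3 of 3 pairs among MDM and the lower in 4 of 4 pairs among microglia, with overlap of the groups in both, since libraries of number 224 were high and those of number 221 low. Neither change passed: the log2 fold change was 0.82 among MDM (SE 0.27, edgeR adjusted p = 0.075) and -0.50 among microglia (SE 0.25, 0.57). Among microglia Mylip did pass with the number as a block (-0.53, SE 0.11, edgeR adjusted p = 0.0392). Among MDM it passed without non-lipid-laden library 224 (edgeR adjusted p = 0.0457) and without both lipid-laden libraries of number 221 (0.0365). Mylip was lower in non-lipid-laden MDM than in non-lipid-laden microglia (139.6 ± 42.9 against 334 ± 63.6 CPM, -1.26, SE 0.26, edgeR adjusted p = 0.00212), and the lipid-laden groups did not differ beyond their spread (0.06, SE 0.27, 0.961).

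Other lipoprotein receptor genes were read beside it. Vldlr, which encodes a receptor that this ligase is known to degrade, had 60 counts in lipid-laden MDM and 0 in non-lipid-laden MDM. It was at 0.770 to 2.83 CPM in lipid-laden MDM and was called higher there (edgeR adjusted p = 0.0294). Its call was lost on leaving out 6 of the 7 MDM libraries singly (edgeR adjusted p up to 0.128). Lrp1, a large scavenging receptor, was at 392 ± 153 CPM in lipid-laden MDM and 183 ± 28.4 CPM in non-lipid-laden MDM (log2 fold change 1.10, SE 0.26, edgeR adjusted p = 0.0166). Its call was lost without lipid-laden MDM 224 or 718 or non-lipid-laden MDM 224 (edgeR adjusted p up to 0.104). Neither gene was called between lipid-laden and non-lipid-laden microglia.

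Lpcat3 encodes an acyltransferase that places polyunsaturated fatty acids in membrane phospholipids (ENSMUSG00000004270, chromosome 6, 124663027 to 124704418, plus strand). It was at 175, 147 and 170.3 CPM in lipid-laden MDM and at 81.4, 96.0, 67.3 and 93.8 CPM in non-lipid-laden MDM. It was at 283, 131, 171 and 213 CPM in lipid-laden microglia and at 205, 153, 171 and 193 CPM in non-lipid-laden microglia. Non-lipid-laden MDM lay below all other libraries, and the other 3 groups overlapped. The log2 fold change among MDM was 0.95 (SE 0.21, edgeR adjusted p = 0.0118), and that between non-lipid-laden MDM and microglia -1.09 (SE 0.20, 0.00109). Among microglia it was 0.14 (SE 0.20, edgeR adjusted p = 0.916). Lpcat3 overlaps Emg1 on the opposite strand (14591 counts against 21926), a gene called in none of the 4 comparisons of groups.

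Srebf1 encodes SREBP1, which drives fatty acid synthesis and is itself an LXR target (ENSMUSG00000020538, chromosome 11, 60199089 to 60222581, minus strand). It was at 60.4, 18.2 and 48.4 CPM in lipid-laden MDM and at 40.3, 38.9, 47.8 and 35.6 CPM in non-lipid-laden MDM. It was at 57.1, 28.5, 77.7 and 65.2 CPM in lipid-laden microglia and at 49.7, 36.1, 62.0 and 37.1 CPM in non-lipid-laden microglia. All 4 groups overlapped, and both lipid-laden libraries of number 221 were the lowest of their groups. No comparison passed (log2 fold changes 0.06 among MDM, 0.30 among microglia, -0.43 between lipid-laden origins and -0.19 between non-lipid-laden origins, edgeR adjusted p of 0.67 or more). Without both libraries of number 221 the values among MDM and microglia were 0.42 and 0.55 (edgeR adjusted p = 0.351 and 0.555). The gene overlaps Rai1 on the opposite strand (2123 counts against 6566), which was not called either.

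Smpdl3a encodes a secreted nucleotide phosphodiesterase related to acid sphingomyelinase, an LXR target in human macrophages (ENSMUSG00000019872, chromosome 10, 57794335 to 57811830, plus strand). It was at 306, 265 and 258 CPM in lipid-laden MDM and at 597, 498, 390.5 and 524 CPM in non-lipid-laden MDM. It was at 62.4, 77.4, 53.0 and 61.2 CPM in lipid-laden microglia and at 37.6, 45.8, 53.8 and 45.3 CPM in non-lipid-laden microglia. The MDM groups did not overlap each other or microglia, and the microglial groups overlapped in a narrow range. Its log2 fold change was -0.86 between lipid-laden and non-lipid-laden MDM (SE 0.17, edgeR adjusted p = 0.00572). Between lipid-laden and non-lipid-laden microglia it was 0.48 (SE 0.16), which did not pass (edgeR adjusted p = 0.356, unadjusted 0.00887). Between MDM and microglia it was 2.12 among lipid-laden cells (SE 0.17, edgeR adjusted p = 1.29e-05) and 3.46 among non-lipid-laden cells (SE 0.17, 2.21e-08), and no gene of the 14843 had a smaller adjusted p in either, with Kmo level among lipid-laden cells. Smpdl3a fell in lipid-laden MDM along with the MDM markers (sums of 1260 to 1530 CPM against 3050 to 3670 CPM) and the dendritic cell markers, and their part in the fall was not tested.

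**Figure D4:**
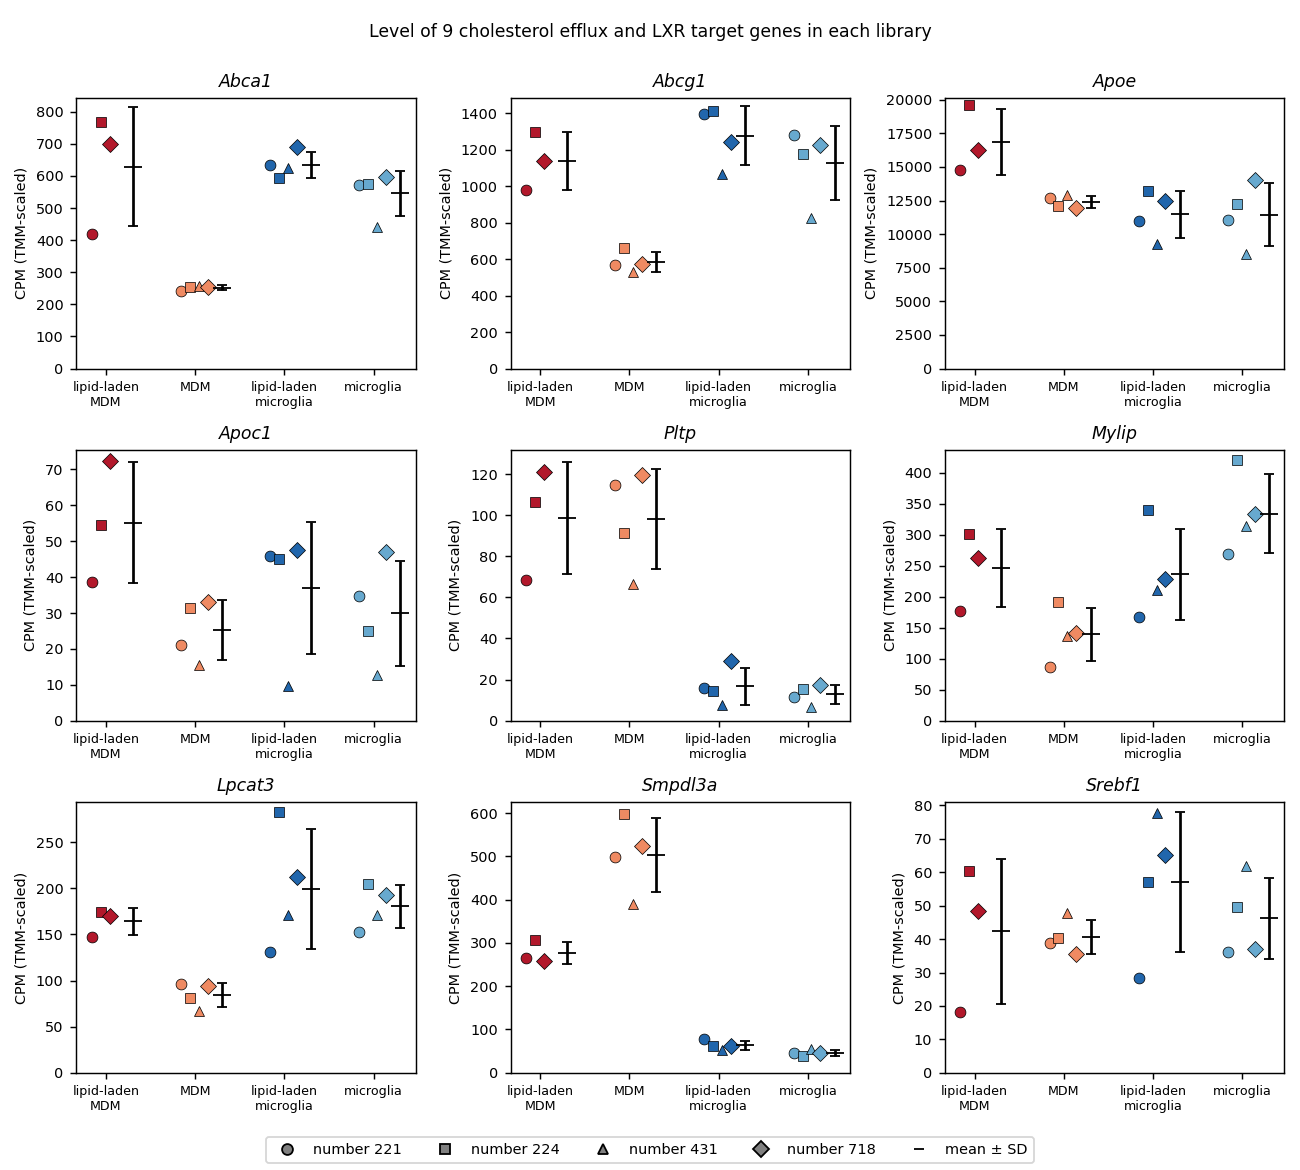
CPM (vertical axes, linear from 0) of the 9 genes tested in each of the 15 libraries, with lipid-laden MDM, non-lipid-laden MDM, lipid-laden microglia and non-lipid-laden microglia from left to right. Point shapes give the number in the title and bars the mean ± SD. Apoe is highest in the 3 lipid-laden MDM libraries, Abca1, Abcg1 and Lpcat3 are lowest in non-lipid-laden MDM, and Pltp and Smpdl3a are high in MDM of both kinds.

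Per kilobase of exon, the 10 genes covered a wide range of levels. On this scale Apoe was the highest of the 10, at means of 7890, 5800, 5370 and 5360 CPM per kb in lipid-laden MDM, non-lipid-laden MDM, lipid-laden microglia and non-lipid-laden microglia. Smpdl3a came next in non-lipid-laden MDM, at 243 CPM per kb, ahead of Abcg1 at 80.0, whereas in lipid-laden microglia Abcg1 was at 175 and Smpdl3a at 30.7 CPM per kb. In lipid-laden MDM they were at 156 (Abcg1) and 134 (Smpdl3a) CPM per kb. Srebf1 was low throughout, at 7.51, 7.22, 10.1 and 8.20 CPM per kb in the order of groups above.

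The receptors that act on these genes were measured in the same libraries. Nr1h3, which encodes LXR alpha, was at 38.9 ± 5.20 CPM in lipid-laden MDM, 38.4 ± 16.2 CPM in non-lipid-laden MDM, 4.87 ± 3.28 CPM in lipid-laden microglia and 2.99 ± 2.17 CPM in non-lipid-laden microglia. It was higher in MDM among lipid-laden cells (log2 fold change 2.99, SE 0.73, edgeR adjusted p = 0.0385) and among non-lipid-laden cells (3.68, SE 0.74, 0.00198), and did not differ with lipid load beyond the spread. The call among lipid-laden cells was lost in 9 of 15 omissions of 1 library (edgeR adjusted p up to 0.109). It was also lost without both lipid-laden libraries of number 221. Nr1h2, which encodes LXR beta, was at 85.0 ± 18.0, 107 ± 21.4, 90.5 ± 7.06 and 91.1 ± 11.4 CPM in the same order of groups and was called in no comparison. Rxra, which encodes an RXR partner, was at 49.2 ± 14.5 CPM in lipid-laden MDM and 17.9 ± 5.57 CPM in non-lipid-laden MDM (1.46, SE 0.29, edgeR adjusted p = 0.00536) and was at 41.0 ± 4.33 and 42.0 ± 12.7 CPM in lipid-laden and non-lipid-laden microglia. Of the 10 receptor, partner and corepressor genes, Rxra alone was called among MDM (median log2 fold change -0.06), where 8.17% of all genes were. None was called among microglia (-0.09).

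Other genes known as LXR targets did not move one way. Of 11 tested, 3 were higher and 2 lower in lipid-laden MDM, where 5.21% and 2.96% of all genes were. The median log2 fold change was 0.22, beside 0.04 over all genes. None was called among microglia (0.05, beside -0.02). With the number as a block 1 was, the desaturase gene Scd2, higher in lipid-laden microglia (log2 fold change 0.64, SE 0.12, edgeR adjusted p = 0.0287). Mertk, a receptor for the uptake of dying cells and myelin, was at 189 ± 8.24 CPM in lipid-laden MDM, 80.9 ± 25.2 CPM in non-lipid-laden MDM, 195 ± 14.7 CPM in lipid-laden microglia and 254 ± 38.8 CPM in non-lipid-laden microglia. Its fold change among MDM was 1.22 on the log2 scale (SE 0.20, edgeR adjusted p = 0.00121). Lpl, the lipoprotein lipase gene, was at 150 ± 39.4 CPM in lipid-laden and 26.9 ± 10.5 CPM in non-lipid-laden MDM, and Cd5l, a secreted macrophage protein, at 79.6 ± 59.2 and 5.66 ± 6.62 CPM. The Cd5l call was lost without lipid-laden MDM 718 (edgeR adjusted p up to 0.105 over the alternatives). The lower genes both act in fatty acid synthesis, namely Scd1, a desaturase (4.93 ± 4.43 CPM in lipid-laden and 44.5 ± 19.1 CPM in non-lipid-laden MDM), and Elovl5, an elongase (72.2 ± 13.8 and 167 ± 32.7 CPM). The Scd1 call was borderline (edgeR adjusted p = 0.0495). It was lost in 12 of 15 omissions of 1 library and without both lipid-laden libraries of number 221. That of Elovl5 was lost in 3 of 15 omissions.

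Other genes of sterol efflux and cholesterol trafficking were higher in lipid-laden MDM where they were called. Of 18 tested, 4 were higher and none lower (median 0.02), where 5.21% and 2.96% of all genes were. None was called among microglia (median 0.24). Npc1, which moves cholesterol out of lysosomes, was at 150 ± 38.8 CPM in lipid-laden and 68.2 ± 5.45 CPM in non-lipid-laden MDM (log2 fold change 1.14, SE 0.18, edgeR adjusted p = 0.00109). Lipa, the lysosomal lipase that frees cholesterol from its esters, was at 739 ± 178 and 387 ± 60.8 CPM in the same groups (0.93, SE 0.20, 0.00983), and its call was lost without lipid-laden MDM 224 (edgeR adjusted p = 0.0634). The sterol carrier gene Gramd1b and the Npc1 partner Npc2 were called too (edgeR adjusted p = 0.0231 and 0.0389), and lost their calls in 4 and 7 of 15 omissions. The Npc2 call was also lost without both lipid-laden libraries of number 221.

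Cholesterol synthesis is a pathway that cells lower when sterol is plentiful. Of 23 genes of synthesis and its regulator SREBP2, 4 were lower in lipid-laden MDM (Cyp51, Pmvk, Srebf2 and Insig1) and 1 higher (Insig2). Of all genes tested, 2.96% were lower and 5.21% higher. The 23 genes had a median log2 fold change of -0.54, beside 0.04 over all genes. Cyp51, a demethylase of the pathway, was at 44.1 ± 8.97 CPM in lipid-laden MDM, 127 ± 5.75 CPM in non-lipid-laden MDM, 31.0 ± 9.86 CPM in lipid-laden microglia and 34.7 ± 2.98 CPM in non-lipid-laden microglia. Srebf2, which encodes SREBP2, was at 13.5 ± 4.02 CPM in lipid-laden and 50.4 ± 18.2 CPM in non-lipid-laden MDM (-1.90, SE 0.39, edgeR adjusted p = 0.00686). The calls of Cyp51, Pmvk and Srebf2 were kept on leaving out each library, and those of Insig1 and Insig2 were lost in 8 and 5 of 15 omissions. The Insig1 and Insig2 calls were also lost without both lipid-laden libraries of number 221. None of the 23 genes was called among microglia (median 0.04). Between non-lipid-laden MDM and non-lipid-laden microglia, 6 of the 23 were higher in MDM and 1 lower, where 10.7% and 12.5% of all genes were. The median was 0.59, beside -0.12 over all genes, and 16 of the 23 were not called. None of the 23 was called between the lipid-laden groups (median 0.08).

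Enzymes that make or remove oxysterols, the natural ligands of LXR, were called in both directions. Of 6 tested, Ch25h, which makes 25-hydroxycholesterol, was higher in lipid-laden MDM (45.7 ± 25.2 against 10.3 ± 7.40 CPM, edgeR adjusted p = 0.0364), and Cyp7b1, which breaks oxysterols down, was lower (5.04 ± 3.93 against 46.4 ± 8.08 CPM, 0.0387). Of all genes tested, 5.21% were higher and 2.96% lower in lipid-laden MDM. The Ch25h and Cyp7b1 calls were lost in 3 and 7 of 15 omissions of 1 library. That of Cyp7b1 was also lost without both lipid-laden libraries of number 221. The list's median was 1.29, but 2 of its genes had at most 3 counts in non-lipid-laden MDM. These were Cyp46a1 (23 counts in lipid-laden MDM against 0) and Cyp11a1 (100 against 3), so the median rests partly on genes at few counts. Among microglia Ch25h was at 113 ± 59.5 CPM in lipid-laden and 87.9 ± 42.4 CPM in non-lipid-laden cells, and none of the 6 was called (median -0.05). The microglial and dendritic cell markers given above also differed between lipid-laden and non-lipid-laden MDM, and their part in the results on these lists was not tested.

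**Figure D5:**
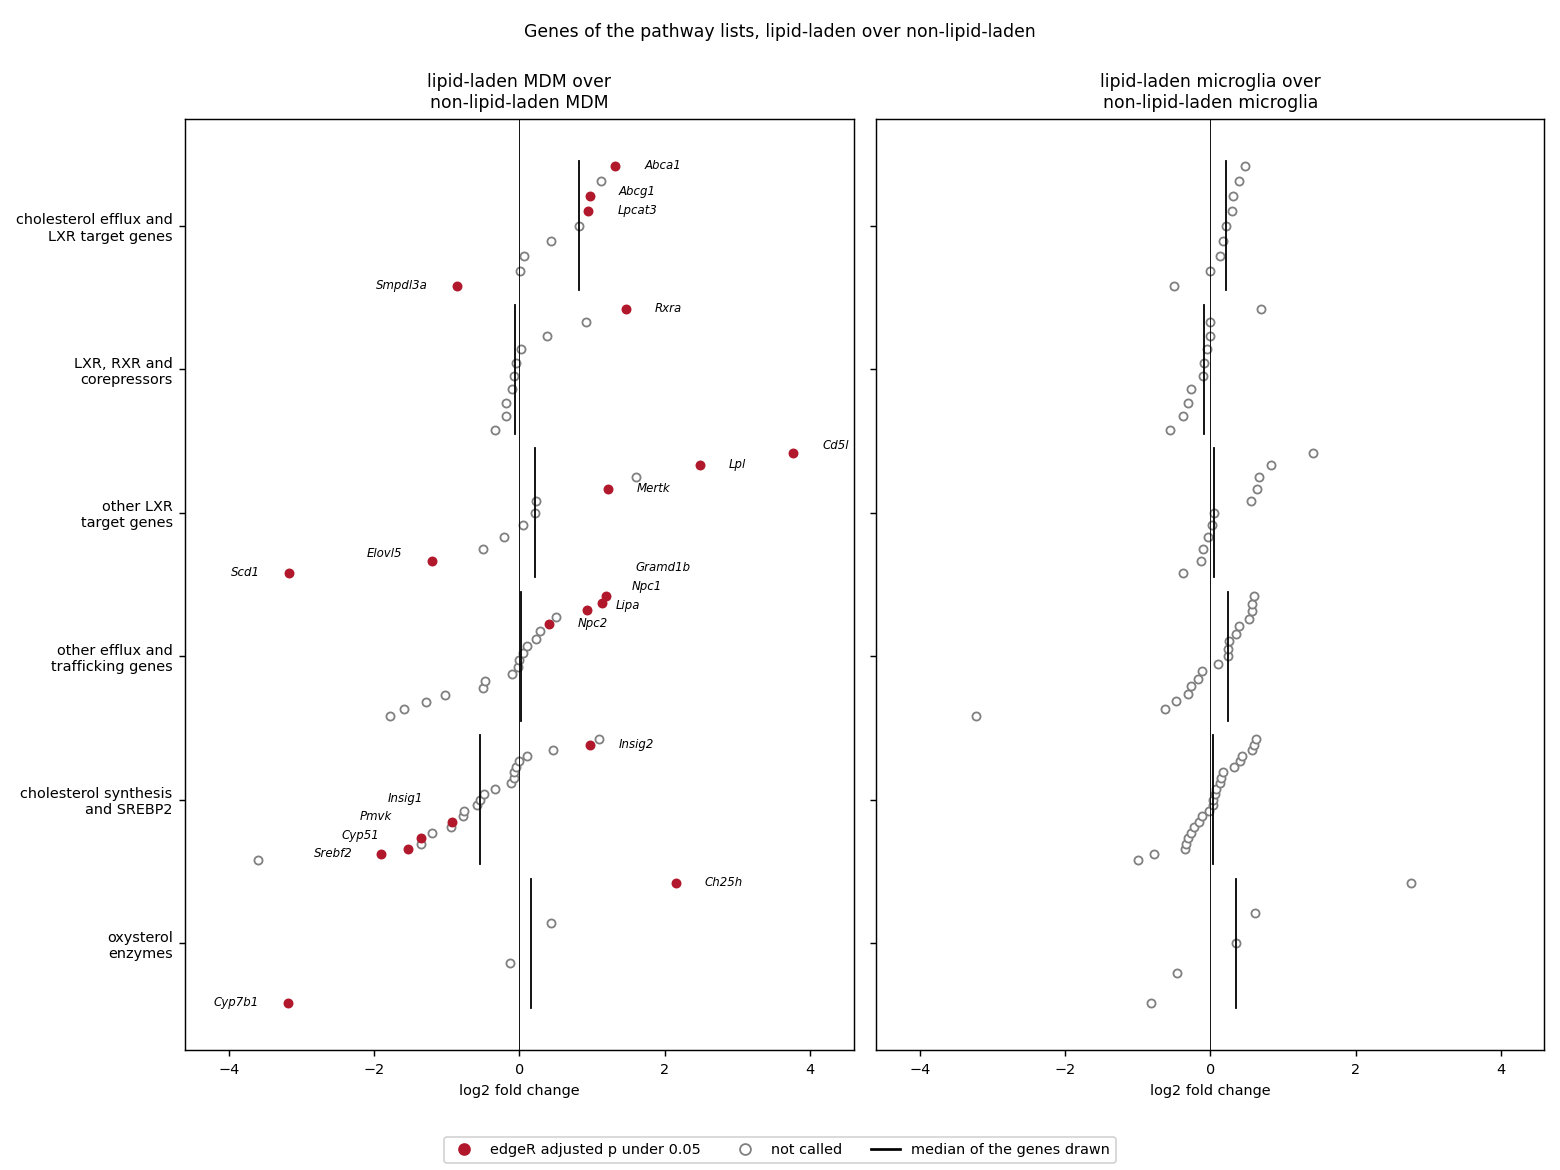
Log2 fold change (horizontal axes) of each tested gene of the 10 described here and of 5 related lists, lipid-laden over non-lipid-laden, for MDM on the left and microglia on the right. Filled red points had an edgeR adjusted p under 0.05, black ticks are medians of the genes drawn, and genes with at most 3 counts in a group are left out, so the ticks of the oxysterol enzymes are not the medians over all genes tested. The 9 genes have a median of 0.82 among MDM and 0.22 among microglia, and cholesterol synthesis has -0.54 and 0.04.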

How the data were processed

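Reads of 15 bulk RNA-seq libraries had been counted per gene, and the authors deposited raw read counts with Ensembl identifiers, symbols and coordinates, per the file headers. The sorted cells gave little RNA, which was primed on its poly(A) tails and extended by template switching, per the labels' protocols. Per the submitters' processing notes, mm10 was the build. No source used here gives the aligner, the counter or the strand setting, so overlapping genes on opposite strands cannot be told apart. The coordinates of all 10 genes are the same in GENCODE M21. Entries without a gene name numbered 1, with 0 counts.

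Libraries were grouped by title. Counts were tested with edgeR 4.0.16 (quasi-likelihood, TMM, filterByExpr with a minimum count of 10 and total of 15, Benjamini-Hochberg over 14843 genes) in R 4.3.3, in 1 fit of all 15 libraries with 1 coefficient per group, and called at adjusted p under 0.05. SE was obtained from the log2 fold change and its F statistic (ratio to the root of F). The fit was tested on simulated data. Replicates were not repeats of each other (smallest chi-square per degree of freedom 18.6). The libraries carry no molecular identifiers, so no bound on a fold change is given for a group at 0 counts.

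The numbers in the titles were taken to pair libraries where every same-numbered pair's deviations from group means correlated at over 0.1. This held for lipid-laden with non-lipid-laden microglia (r = 0.124 to 0.256 over 4 pairs) and for lipid-laden MDM with lipid-laden microglia (0.107 to 0.168 over 3 pairs), so the blocked value stands beside those results where it changes a call. Alternatives were the block, DESeq2 1.42.0, limma-voom (limma 3.58.1), upper-quartile scaling, no filter, only the 2 groups compared, and leaving out libraries.

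The genes and lists were chosen with earlier results of these data known. Named list genes are up to 3 called per list and comparison with the smallest p, and genes fixed by name; Insig1, Insig2, Kmo, the blocked calls among lipid load genes, Elovl5, Scd1, Npc2 and the neighbours of Apoe were named after their values were seen. Results on a few of these genes are not reported here. Likeness used genes with a mean log2 CPM of at least 3. Promoters are from RefSeq, and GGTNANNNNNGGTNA was the motif searched.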

Additional observations from a re-analysis of the deposited data

Results flagged for a closer look

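Abca1 in non-lipid-laden microglia of number 431 was at 440.4 CPM, apart from the other 3 libraries of the group at 571.5 to 596 CPM. Apoc1 in lipid-laden microglia of number 431 was at 9.56 CPM, apart from the other 3 at 44.9 to 47.6 CPM. Both were found among 27 groups of 4 libraries tested by Dixon's criterion, which chance alone meets in about 1 in 20 groups.

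The lipid-laden effect on Abca1 was larger in MDM than in microglia, by 1.10 on the log2 scale (edgeR adjusted p = 0.019), a call that was lost without lipid-laden MDM 224 or 718. That on Smpdl3a differed by -1.34 (edgeR adjusted p = 0.00635), with lower values in all 3 same-numbered pairs among MDM and higher values in 3 of 4 pairs among microglia.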

How the results depend on the processing

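Over the 5 comparisons, the log2 fold changes of the 9 genes stayed on their side of the threshold in 959 gene and setting combinations, passed newly in 20 and no longer passed in 2. No called value changed sign, and values that were not called did so in 18 combinations, all of Pltp, Srebf1, Lpcat3, Apoc1, Abca1 or Mylip. That count leaves out Apoe among microglia, whose main value rounded to 0. Over omissions of 1 library it ran from -0.10 to 0.13. The number of the 9 genes called was 4 to 5 (main 4) for lipid-laden over non-lipid-laden MDM, 6 in every setting for MDM over microglia without lipid load, and 2 to 3 (main 2) with lipid load. Among microglia it was 0 except with the replicate block, where it was 1. For the difference of the lipid-laden effect it was 2, against 4 with the replicate block, 4 with DESeq2, 3 with upper-quartile scaling and 3 with limma-voom, and 1 to 4 over the omissions of 1 library. With the block, where 10.3% and 4.43% of all genes were called, Mylip passed among MDM and, with Abcg1, in that difference (edgeR adjusted p = 0.000772, 0.00108 and 0.0244), but same-numbered MDM libraries correlated at 0.0272 to 0.123 with and without lipid load, and MDM with microglia at 0.0152 to 0.150, so not every pair reached the level set for pairing. Whether the number marks a shared animal is not stated. Mylip among MDM also passed with DESeq2 (adjusted p = 0.0437). The background moved too: all genes called among microglia were 0 to 180, among MDM 657 (without lipid-laden 718) to 2106 (DESeq2; 800 without non-lipid-laden 224), between lipid-laden origins 168 (without lipid-laden MDM 224) to 888 (DESeq2), and for the difference 186 (without lipid-laden MDM 718) to 1072 (DESeq2). With 3 or 4 libraries a group, genes of low level such as Apoc1 and Srebf1 had SE of 0.34 to 0.48 on the log2 scale in the comparisons of 2 groups and 0.50 to 0.66 in the difference of effects, which limits what could be detected for them. The cause of these changes was not tested.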
